A study of Homo sapiens with 12 samples.

Results

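The genes described here were SOX2, SOX4, SOX9, SOX12 and SOX13, members of the SOX family of transcription factors, and every array probe annotated to them was read. They were represented by 6 of the 47231 probes, or 5 of the 20046 genes with a symbol, and only SOX2 had more than 1 probe. The 12 Illumina bead arrays read mRNA of T47D-Y cells, derivatives of the luminal breast cancer line T47D that have lost progesterone receptor (PR). The study asked how loss of SUMOylation of the PR-B isoform changes the genes that the receptor regulates, with and without ligand. KR cells carried PR-B with the K388R substitution, which removes the lysine to which SUMO is attached. WT cells carried wild-type PR-B. PR-null cells carried the empty pIRES-neo3 vector, and all lines were selected with G418. The lines were grown from single cells, so that clone and receptor cannot be told apart. Cells of each line were starved of serum for a day and were then given the synthetic progestin R5020 or its ethanol vehicle for 6 h. Each of the 6 combinations was measured on 2 arrays (n = 2 throughout), and p-values measure only the spread between such duplicates.

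SOX proteins bind the minor groove of DNA through an HMG box and bend it, usually together with a partner factor. SOX2 maintains pluripotent and neural stem cells and is expressed by part of breast tumours. SOX9 directs cartilage and testis development and marks progenitor cells of the mammary gland, whereas SOX4 and SOX12 are SOXC proteins with overlapping roles in developing tissues, and SOX13 is a SOXD protein that lacks a transactivation domain of its own. PR-B is a steroid receptor that raises or lowers transcription when progestin is bound.

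To show the sequence at the start of the 2 genes that fell with R5020 in both receptor lines, the RefSeq promoters of SOX2 and SOX13 (build GRCh38.p14, 250 bases before to 50 bases after the transcription start, plus strand) are given, at chr3:181711675-181711974 and chr1:204072865-204073164. Capitals mark matches, on either strand, to the SOX cores AACAAT and ACAAAG, to the CCAAT box CCAAT, to the core of the progestin response element AGAACA, and to the full element, which joins AGAACA and TGTTCT by NNN and so contains that core on each strand.
SOX2 promoter: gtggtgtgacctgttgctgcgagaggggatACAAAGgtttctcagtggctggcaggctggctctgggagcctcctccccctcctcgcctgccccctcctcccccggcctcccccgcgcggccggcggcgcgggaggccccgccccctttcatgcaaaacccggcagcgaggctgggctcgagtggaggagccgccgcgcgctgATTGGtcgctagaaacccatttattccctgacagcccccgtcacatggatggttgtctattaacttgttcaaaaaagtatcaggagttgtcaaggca
SOX13 promoter: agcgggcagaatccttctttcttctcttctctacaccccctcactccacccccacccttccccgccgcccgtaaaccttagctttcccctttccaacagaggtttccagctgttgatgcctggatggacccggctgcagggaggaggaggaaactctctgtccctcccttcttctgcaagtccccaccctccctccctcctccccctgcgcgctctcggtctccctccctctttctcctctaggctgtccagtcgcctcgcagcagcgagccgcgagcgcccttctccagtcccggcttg
The SOX2 window (63.3% G and C) held 1 ACAAAG match, which began 220 bases before the start, and 1 CCAAT box on the reverse strand, written ATTGG in the sequence, which began 47 bases before it. No match to any searched motif lay in the SOX13 window (62.7% G and C). Of the 35116 promoters in the table, 16.1% held ACAAAG, 34.6% CCAAT, 10.1% AACAAT, 14.8% AGAACA and 0.00285% the full element, so that matches of these kinds are common, apart from the full element. The promoters of SOX4 and SOX12 held 4 and 1 CCAAT boxes and no other match. A match is a run of letters and not a binding site.

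Signals are log2 intensities. A probe was counted as above background when it exceeded 6.09, the 95th percentile of 457 olfactory receptor probes, and a difference was called at a log2 difference over 0.6 (1.52-fold) with an adjusted p under 0.01. All adjusted p-values come from limma with Benjamini-Hochberg adjustment over all 47231 probes, and ± is the standard error unless SD is written. Duplicate arrays correlated at 0.995 in every group, and 44.3% to 44.4% of probes exceeded the limit on each array. PGR, the gene of the receptor itself, gave 9.78 and 9.59 in KR cells with R5020 and 8.86 and 8.96 in KR cells with vehicle, 7.66 and 7.51 in WT cells with R5020 and 8.49 and 8.62 in WT cells with vehicle, against 5.44 and 5.45 in PR-null cells with R5020 and 5.38 and 5.46 in PR-null cells with vehicle. PGR mRNA was thus above background in both receptor lines and below it in PR-null cells, in accord with the labels. Of the luminal epithelial markers, 7 of 8 were above background on all arrays and TFF1 on 7 arrays. Of the basal and mesenchymal markers measured, VIM was above background and the other 4 were not. Of the leukocyte markers measured, PTPRC and CD3E were at or under the limit on all arrays, and CD68 was above it on all (7.74 to 8.15). Of the fibroblast markers, COL1A1 was above the limit on all arrays (6.15 to 6.44), DCN on 1 and COL3A1 on none.

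Both SOX2 probes were high in KR and WT cells with vehicle and far lower with R5020. Probe ILMN_1770635 gave 7.97 and 8.08 in KR cells with R5020, against 10.27 and 10.18 in KR cells with vehicle. It gave 7.12 and 7.06 in WT cells with R5020, against 10.32 and 10.19 in WT cells with vehicle. In both lines each R5020 array lay far below each vehicle array, and the WT arrays with R5020 were the lowest of all 12, still above background. SOX2 fell by 2.21 ± 0.109 on the log2 scale in KR cells (4.61-fold, adjusted p = 1.67e-20) and by 3.16 ± 0.109 in WT cells (8.96-fold, adjusted p = 3.65e-26), leaving 21.7% of the vehicle signal in KR cells and 11.2% in WT cells. Background is part of every signal, so these folds are those of the signal as measured.

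Probe ILMN_2177156 gave the same picture, with 8.07 and 7.88 in KR cells with R5020, against 10.37 and 10.02 in KR cells with vehicle. In WT cells it gave 7.06 and 6.88 with R5020, against 9.89 and 10.15 with vehicle. The groups again did not overlap in either line. Its log2 difference was -2.22 ± 0.125 in KR cells (4.66-fold lower, adjusted p = 1.86e-18) and -3.06 ± 0.125 in WT cells (8.32-fold lower, adjusted p = 2.23e-23). The 2 probes shared their call in 12 of 12 contrasts, and their differences were within 0.20 of each other on the log2 scale.

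In PR-null cells SOX2 was lower than in receptor lines with vehicle, and no response to R5020 was called. ILMN_1770635 gave 8.30 and 8.25 with R5020, against 8.33 and 8.27 with vehicle, and ILMN_2177156 gave 8.23 and 8.09 with R5020, against 8.32 and 8.01 with vehicle. The groups overlapped for both probes, and the log2 differences of -0.02 and -0.01 were not called (adjusted p = 0.998 and 0.999, 95% intervals -0.24 to 0.20 and -0.26 to 0.25). The R5020 effect in KR cells minus that in PR-null cells was -2.19 ± 0.154 for ILMN_1770635 (adjusted p = 1.06e-14), and the WT effect minus the PR-null effect was -3.14 ± 0.154 (adjusted p = 4.61e-20). These tests share the PR-null arrays.

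**Figure D1:**
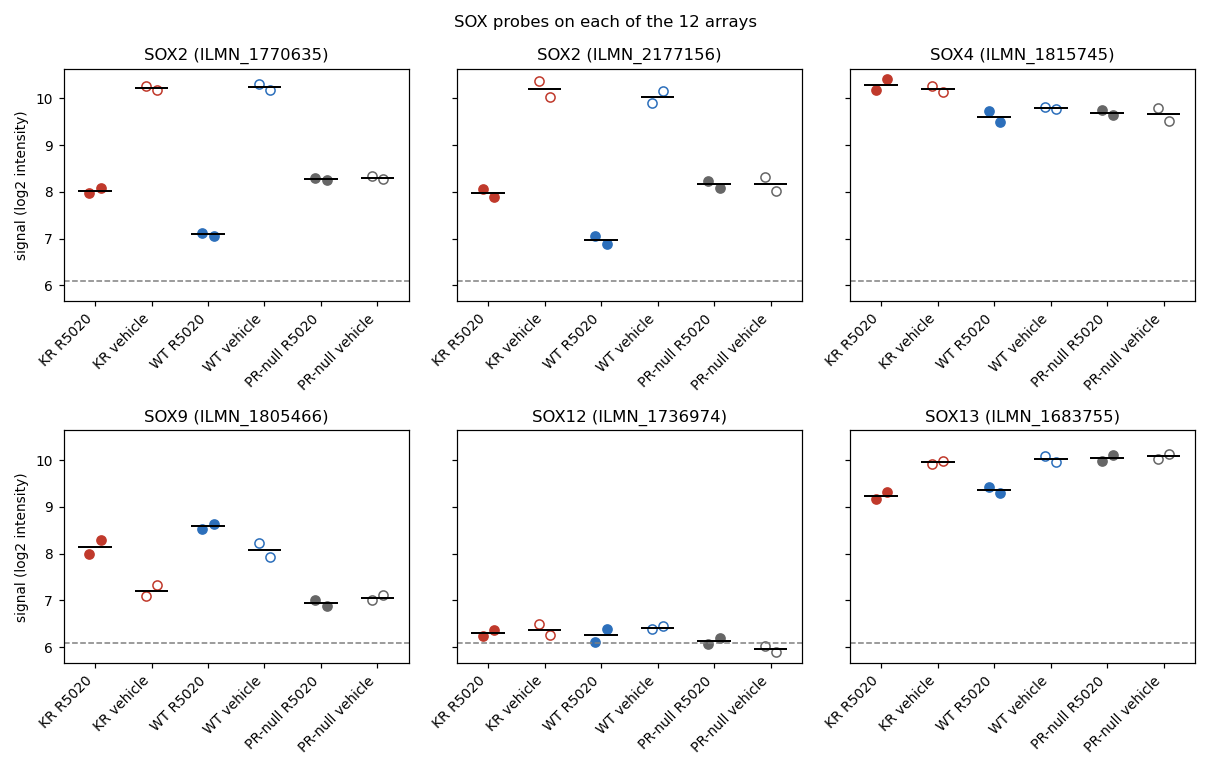
Log2 signal (vertical axis) of each SOX probe on each of the 12 arrays, by group of line and treatment. Points are arrays (filled, R5020; open, vehicle), short bars group means, and the dashed line the background limit of 6.09. SOX2 is lowest in WT cells with R5020 (6.88 to 7.12) and highest in KR and WT cells with vehicle (9.89 to 10.37).

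The loss of SOX2 was smaller in KR than in WT cells. The R5020 effect in KR cells minus that in WT cells was 0.96 ± 0.154 for ILMN_1770635 (95% interval 0.65 to 1.27, adjusted p = 8.93e-05) and 0.84 ± 0.177 for ILMN_2177156 (95% interval 0.48 to 1.19, adjusted p = 0.00489), and the KR effect was 0.697 and 0.726 of the WT effect on the log2 scale. The call for ILMN_2177156 was lost when either KR vehicle replicate 2 (0.66, adjusted p = 0.121), KR R5020 replicate 1 (0.74, 0.0648), WT vehicle replicate 2 (0.71, 0.0838) or WT R5020 replicate 2 (0.75, 0.0618) was left out, whereas that for ILMN_1770635 was kept without any 1 array. With vehicle, SOX2 in KR cells differed from WT cells by -0.02 (95% interval -0.24 to 0.19) and 0.17 (-0.08 to 0.42) for the 2 probes, and neither was called. With R5020, it was 1.91-fold higher in KR than in WT cells by ILMN_1770635 (0.93 ± 0.109, adjusted p = 2.31e-08) and 2.01-fold by ILMN_2177156 (adjusted p = 9.44e-08).

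PGR mRNA moved beside this difference. It was higher in KR than in WT cells by 2.10 on the log2 scale with R5020 (adjusted p = 1.42e-18). With vehicle the difference was 0.36 (adjusted p = 0.0983, not called). With R5020, PGR rose by 0.78 in KR cells (adjusted p = 8.97e-07) and fell by 0.97 in WT cells (adjusted p = 4.46e-09). These effects differed by 1.75 (adjusted p = 2.51e-10). The arrays read PGR mRNA and not receptor protein. The paper describes a slightly faster loss of KR than of WT receptor protein after progestin. Whether KR cells held more or less receptor protein than WT cells cannot be read from PGR mRNA. The part of receptor protein level in the SOX2 difference was not tested. Because the arrays read bulk RNA, fewer SOX2-expressing cells and less SOX2 mRNA per cell cannot be told apart. SOX2-OT, the long noncoding RNA within which SOX2 lies, was at or under background on all arrays (5.58 to 5.88), and it was looked at after the SOX values had been seen.

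Among the other members, SOX13 fell and SOX9 rose with R5020. Of the 6 probes, 1 rose and 3 fell in KR cells, where 1.66% of all probes rose and 0.786% fell, and 3 fell in WT cells, where 1.18% of all probes fell. None was called in PR-null cells, where limma called 0 probes in all (0% of all probes, 2361 probes at an unadjusted p under 0.05, none of them a SOX member). As 2 of the 6 probes measure SOX2, these counts are not of independent genes.

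SOX13 gave 9.16 and 9.31 in KR cells with R5020, against 9.92 and 9.99 in KR cells with vehicle. In WT cells it gave 9.43 and 9.31 with R5020, against 10.08 and 9.96 with vehicle. All 4 R5020 arrays of the receptor lines were below every other array, and PR-null cells gave 9.98 and 10.12 with R5020, against 10.02 and 10.14 with vehicle. The probe fell by 0.72 ± 0.111 on the log2 scale in KR cells (1.64-fold, adjusted p = 4.76e-06) and by 0.65 ± 0.111 in WT cells (1.57-fold, adjusted p = 2.17e-05), and without WT vehicle replicate 1 or WT R5020 replicate 2 the WT difference was -0.59 and was not called. The difference between the effects in KR and WT cells was -0.06 (95% interval -0.38 to 0.25, adjusted p = 0.960).

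SOX9 gave 8.0 and 8.30 in KR cells with R5020, against 7.09 and 7.34 in KR cells with vehicle. In WT cells it gave 8.54 and 8.64 with R5020, against 8.23 and 7.94 with vehicle. R5020 arrays were above vehicle arrays in both lines, but from a lower vehicle level in KR cells. SOX9 rose by 0.94 ± 0.121 on the log2 scale in KR cells (1.91-fold, adjusted p = 8.95e-08). In WT cells the difference was 0.50 ± 0.121 (adjusted p = 0.00299), under the fold threshold and not called, although it reached 0.65 and was called without WT vehicle replicate 1. The KR effect exceeded the WT effect by 0.43 (95% interval 0.09 to 0.78, adjusted p = 0.352), so that a difference between the lines was not called. In PR-null cells SOX9 gave 7.02 and 6.88 with R5020, against 7.01 and 7.11 with vehicle.

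SOX4 and SOX12, the SOXC members, showed no called response to R5020. SOX4 gave 10.18 and 10.41 in KR cells with R5020, against 10.25 and 10.14 in KR cells with vehicle, and 9.73 and 9.48 in WT cells with R5020, against 9.81 and 9.77 in WT cells with vehicle. Its R5020 differences were 0.09 in KR cells (95% interval -0.14 to 0.33), -0.18 in WT cells (-0.42 to 0.05) and 0.03 in PR-null cells (-0.21 to 0.27). SOX12 lay near background, between 5.89 and 6.49, and was above the limit on 9 of 12 arrays. Its R5020 differences were -0.07 in KR cells and -0.16 in WT cells, with adjusted p of 0.878 and 0.535. In PR-null cells SOX12 gave 6.07 and 6.20 with R5020, against 6.03 and 5.89 with vehicle, and only the array at 6.20 was above background. The log2 difference of 0.18 (95% interval -0.05 to 0.41, adjusted p = 0.986) was not called, so that no rise was shown.

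**Figure D2:**
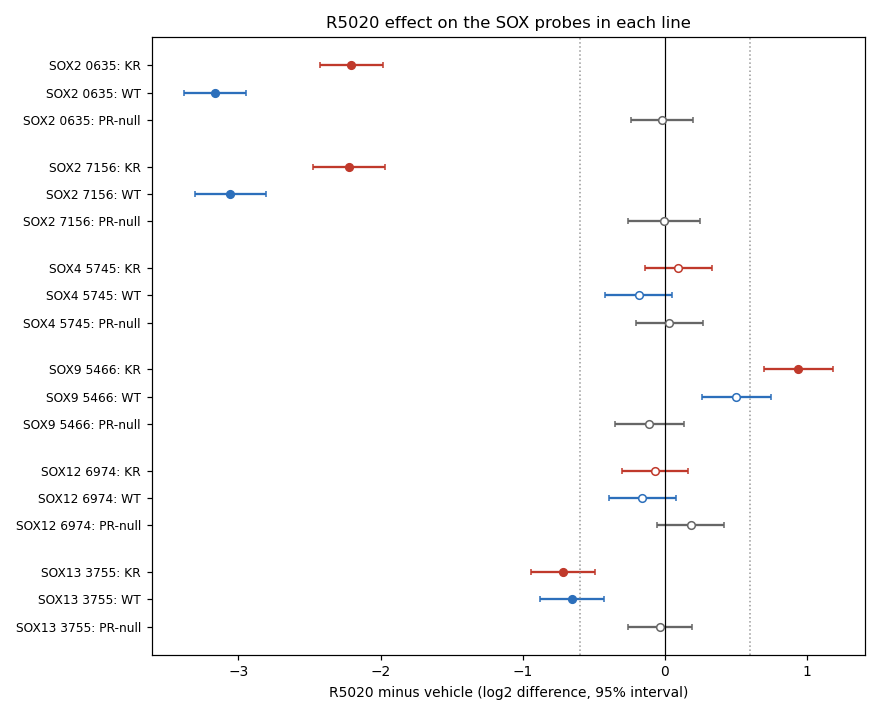
R5020 minus vehicle on the log2 scale (horizontal axis) for each SOX probe, named by gene and the last 4 digits of the probe, in KR (red), WT (blue) and PR-null (grey) cells. Bars are 95% intervals, filled points were called and dotted lines mark ±0.6. The SOX2 intervals of KR and WT cells lie apart, and the PR-null points lie near 0.

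The differences of these R5020 effects from those in PR-null cells were tested for every member. For the KR effect, 1 probe was called higher and 3 lower (1.51% and 0.733% of all probes), and for the WT effect 3 lower (1.25%). For the KR effect minus the WT effect, 2 were called higher, both of SOX2 (0.358% of all probes). SOX9 gave 1.05 ± 0.171 for KR minus PR-null (adjusted p = 2.43e-05) and 0.61 for WT minus PR-null (adjusted p = 0.0221, not called). SOX13 gave -0.68 ± 0.157 for KR minus PR-null (adjusted p = 0.00436) and -0.62 ± 0.157 for WT minus PR-null (adjusted p = 0.00962). The SOX13 call for KR minus PR-null was lost without KR R5020 replicate 1 (-0.61), KR vehicle replicate 1 (-0.72) or 2 (-0.65), PR-null R5020 replicate 2 (-0.61) or PR-null vehicle replicate 1 (-0.62), at adjusted p of 0.0130 to 0.0487. That for WT minus PR-null was lost whichever of its arrays was left out (-0.69 to -0.55, adjusted p = 0.0136 to 0.0781) and with the replicate number as a block (adjusted p = 0.0107).

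Without ligand, SOX2 and SOX9 already differed between lines, and no difference of SOX4, SOX12 or SOX13 was called. With vehicle, SOX2 was higher in KR than in PR-null cells by 1.93 for ILMN_1770635 (3.81-fold, adjusted p = 4.85e-18) and by 2.03 for ILMN_2177156 (4.09-fold, adjusted p = 9.10e-17). In WT cells it was higher than in PR-null cells by 1.95 (3.88-fold, adjusted p = 2.14e-18) and 1.86 (3.63-fold, adjusted p = 1.27e-15). SOX9 was higher in WT than in PR-null cells by 1.03 (2.04-fold, adjusted p = 1.60e-08) but differed by 0.15 between KR and PR-null cells (95% interval -0.09 to 0.39, not called), and it was 1.84-fold lower in KR than in WT cells (-0.88 ± 0.121, adjusted p = 3.10e-06). In all, 2 of the 6 probes were called higher in KR than in PR-null cells (0.635% of all probes), 3 higher in WT than in PR-null cells (0.913%), and 1, SOX9, lower in KR than in WT cells (0.284%). The KR and WT comparisons share the PR-null arrays.

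The remaining vehicle differences were smaller. SOX4 was higher in KR than in PR-null cells by 0.54 (adjusted p = 0.00167) and than in WT cells by 0.41 (adjusted p = 0.0556), and neither reached the call. Without PR-null vehicle replicate 1, the KR and PR-null difference was 0.68 and was called. SOX12 was not above background in PR-null cells with vehicle (6.03 and 5.89). KR cells (6.49 and 6.26) differed from PR-null cells by 0.42 on the log2 scale (adjusted p = 0.0199). WT cells (6.38 and 6.45) differed from PR-null cells by 0.46 (adjusted p = 0.00696), and neither difference was called. The KR and WT means were 1.22-fold and 1.25-fold above the background limit. These folds are estimates and not minimum rises. For SOX13, KR and PR-null cells differed by -0.13 and WT and PR-null cells by -0.06.

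With R5020, SOX2 no longer stood above PR-null cells in either receptor line, and SOX9 stood above them in both. SOX2 was lower in WT than in PR-null cells by 1.19 on the log2 scale by each probe (2.28-fold, adjusted p = 5.80e-12 and 2.92e-10), so that WT cells were above PR-null cells with vehicle and below them with R5020. In KR cells with R5020, SOX2 differed from PR-null cells by -0.26 (95% interval -0.48 to -0.04, adjusted p = 0.155) and -0.18 (-0.43 to 0.07, adjusted p = 0.491), and neither was called, although the arrays did not overlap. SOX9 was higher than in PR-null cells by 1.20 in KR cells (2.30-fold, adjusted p = 9.73e-11) and by 1.64 in WT cells (3.12-fold, adjusted p = 7.44e-15). SOX13 was lower than in PR-null cells by 0.81 in KR cells and 0.68 in WT cells (adjusted p = 2.46e-07 and 7.40e-06).

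SOX4 with R5020 was higher in KR cells than in the other lines. It exceeded the level in WT cells by 0.69 (1.61-fold, adjusted p = 5.29e-05) and that in PR-null cells by 0.60 (1.52-fold, adjusted p = 0.000164). Both values are near the threshold, and leaving out KR R5020 replicate 2 ended both calls (0.57 and 0.48), as did WT R5020 replicate 2 for the KR and WT difference (0.57) and PR-null R5020 replicate 2 for the KR and PR-null difference (0.55). With R5020, 2 probes were called higher and 1 lower in KR than in PR-null cells (1.99% and 1.8% of all probes), 1 higher and 3 lower in WT than in PR-null cells (2.54% and 2.21%), and 3 higher in KR than in WT cells (0.726%).

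**Figure D3:**
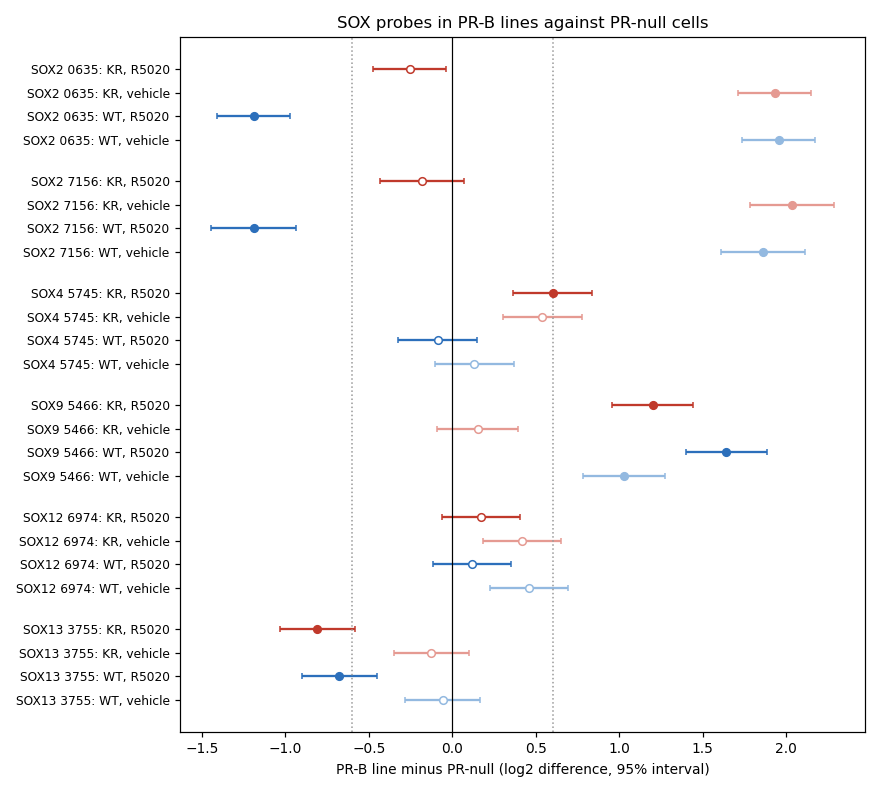
Receptor line minus PR-null cells on the log2 scale (horizontal axis) for each SOX probe with R5020 (dark) and with vehicle (light), KR in red and WT in blue. Bars are 95% intervals, filled points were called and dotted lines mark ±0.6. SOX2 lies right of 0 with vehicle in both lines and left of 0 with R5020 in WT cells.

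Ranked by group mean, the members had different orders. ILMN_1770635 of SOX2 averaged 10.23 ± 0.0662 in KR cells with vehicle and 10.25 ± 0.0904 in WT cells with vehicle (SD), the highest groups, which overlapped. PR-null cells followed, with 8.28 ± 0.0378 with R5020 and 8.30 ± 0.0437 with vehicle, which also overlapped, then KR cells with R5020 (8.02 ± 0.0770) and WT cells with R5020 (7.09 ± 0.0381), each apart from its neighbours. SOX9 was highest in WT cells with R5020 (8.59 ± 0.0746), apart from KR cells with R5020 (8.15 ± 0.211) and WT cells with vehicle (8.09 ± 0.208), which overlapped. KR cells with vehicle and both PR-null groups formed the lower end, each overlapping its neighbour. For SOX13, the 4 groups other than KR and WT cells with R5020 overlapped from neighbour to neighbour, at means of 9.96 to 10.08, and the R5020 groups of KR (9.24 ± 0.106) and WT (9.37 ± 0.0860) overlapped each other.

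The wider SOX family gave little signal in these cells. The other 14 SOX genes had 22 probes, of which 14 were at or under background on all arrays, 7 exceeded it on some arrays and 1, that of SOX18, on all. SOX18, a factor of blood and lymph vessel development, was also the 1 gene of these with a call. It gave 10.45 and 10.38 in KR cells with R5020, against 10.22 and 10.24 in KR cells with vehicle, and 10.76 and 10.57 in WT cells with R5020, against 10.05 and 10.16 in WT cells with vehicle. PR-null cells gave 9.78 and 9.51 with R5020, against 9.57 and 9.77 with vehicle, below both receptor lines. With R5020 SOX18 was higher than in PR-null cells by 0.77 in KR cells (1.71-fold, adjusted p = 1.34e-06) and by 1.02 in WT cells (2.03-fold, adjusted p = 1.68e-09). In each of these comparisons 1 of the 22 probes was called higher, where 1.99% (KR) and 2.54% (WT) of all probes were. Its R5020 effects of 0.19 in KR cells (adjusted p = 0.480) and 0.56 in WT cells (adjusted p = 0.000425) were not called. The endothelial markers PECAM1 and CDH5 were at or under background on all arrays and VWF was above it on 3.

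Genes that act with the members were read from their brightest probe, in lists made with earlier results of these data known. Of 16 genes of the stem cell network around SOX2, 6 were above background on at least 2 arrays. With R5020, 2 of the 16 rose and 2 fell in KR cells (2.7% and 1.38% of all genes), and 2 rose and 2 fell in WT cells (3.3% and 2% of all genes). The list medians were -0.02 in KR cells and -0.03 in WT cells, and those of all genes -0.02 and -0.01. KLF4, a reprogramming factor and epithelial differentiation gene, rose by 1.75 ± 0.122 in KR cells (adjusted p = 1.87e-15) and by 2.99 ± 0.122 in WT cells (adjusted p = 1.79e-23), a smaller rise in KR cells (difference -1.24 ± 0.172, adjusted p = 6.09e-06). Its arrays gave 9.0 and 9.12 in KR cells with R5020 against 7.33 and 7.27 with vehicle, and 9.45 and 9.82 in WT cells with R5020 against 6.59 and 6.70 with vehicle, and its other probe had R5020 differences of 1.14 in KR cells and 2.06 in WT cells. By its brightest probe, KLF4 was already higher in KR than in WT cells with vehicle, by 0.66 (adjusted p = 0.000594). With R5020 the KR and WT difference was -0.58 and was not called. KLF4 thus went up in the same comparisons in which SOX2 went down.

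MYC, a growth regulator, rose by 1.16 in KR cells and 0.89 in WT cells (adjusted p = 3.85e-11 and 3.00e-08), although its other probe gave 0.55 and 0.20. LIN28A, an RNA-binding protein of stem cells, fell by 0.88 in KR cells and 1.18 in WT cells (adjusted p = 4.69e-07 and 2.44e-10). SALL4, a zinc finger factor of embryonic stem cells, fell by 0.81 in KR cells and 0.75 in WT cells (adjusted p = 9.14e-07 and 3.52e-06). For none of these 3 genes was the difference between the KR and WT effects called (adjusted p = 0.672, 0.647 and 0.964).

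Of 14 SOX9 targets known from cartilage and testis, 7 were above background, and limma called none with R5020 in KR or WT cells (1 of 14 in each at an unadjusted p under 0.05). Of all genes, 2.7% rose and 1.38% fell in KR cells, and 3.3% rose and 2% fell in WT cells. At such shares, the lack of a call among 14 genes says little about these targets. Of 6 targets of SOX4 and SOX12, 5 were above background. DICER1, the RNase of microRNA maturation, was higher with R5020 by 0.66 in KR cells and 0.64 in WT cells (adjusted p = 4.15e-05 and 5.25e-05). Its other probes gave -0.04 to 0.64 in KR cells and -0.05 to 0.32 in WT cells, so the probes of this gene differed. SEMA3C, a secreted guidance protein, gave -0.52 in KR cells (not called) and fell by 0.91 in WT cells (adjusted p = 2.94e-07). TUBB3, a neuronal tubulin, gave -0.34 in KR cells (not called) and fell by 0.62 in WT cells (adjusted p = 3.32e-05). The KR and WT effects on SEMA3C and TUBB3 were not called as different (adjusted p = 0.476 and 0.611).

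Of 10 genes that mark or act in mammary progenitor cells, 7 were above background. With R5020, 1 fell and none rose in KR cells, where 1.38% of all genes fell and 2.7% rose, and 1 fell and none rose in WT cells, where 2% fell and 3.3% rose. ELF5, the ETS factor of alveolar luminal cells, gave 11.42 and 11.26 in KR cells with R5020 against 12.41 and 12.22 with vehicle, and 10.45 and 10.25 in WT cells with R5020 against 12.24 and 12.21 with vehicle. It fell by 0.98 ± 0.112 in KR cells (adjusted p = 5.95e-09) and by 1.88 ± 0.112 in WT cells (adjusted p = 1.28e-17), and its other probe gave -0.89 and -1.60. The fall was smaller in KR cells (difference 0.90 ± 0.159, adjusted p = 0.000413), as it was for SOX2.

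The genes most like each member in pattern were taken by Pearson correlation with its brightest probe over the 12 arrays, among up to 2925 genes above background with group means that differed by over 0.6. These values describe 12 arrays in 6 groups of shared lines and treatments and carry no test. For SOX2 the most like were XBP1 (r = 0.973), a factor of the unfolded protein response and of estrogen receptor-positive cells, NDST4 (0.972), MEGF9 (0.968), MCEE (0.960) and GTPBP3 (0.956). Of these, MEGF9 had the R5020 effects nearest in size, at -1.70 in KR cells and -1.88 in WT cells, and XBP1 had -1.01 in KR cells and -1.47 in WT cells. Like SOX2, XBP1 was higher than in PR-null cells with vehicle, by 0.74 in KR cells and 0.71 in WT cells.

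**Figure D4:**
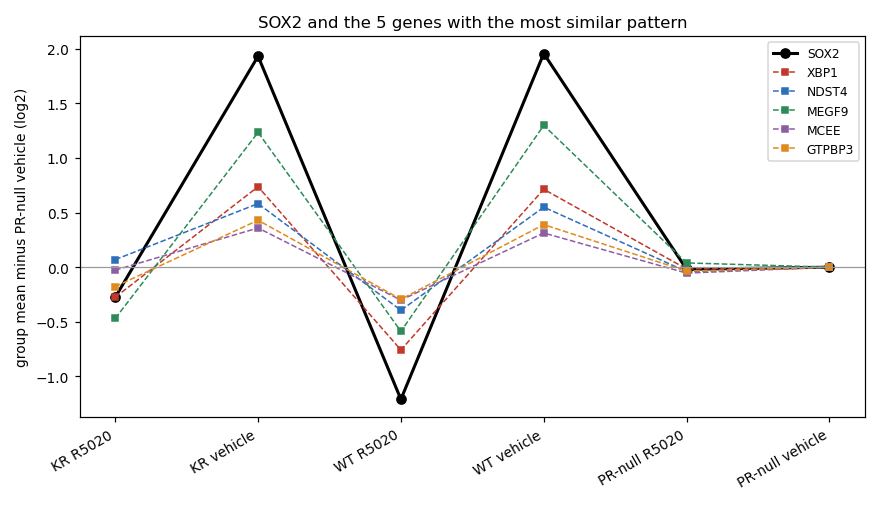
Group mean minus the mean of PR-null cells with vehicle, on the log2 scale (vertical axis), for probe ILMN_1770635 of SOX2 (black) and the 5 genes most like it, in the 6 groups. Lines join groups only to guide the eye. All 6 genes are above 0 in KR and WT cells with vehicle and below 0 in WT cells with R5020.

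SOX13 was most like IGSF9 (r = 0.984), a cell adhesion protein, IRF2BPL (0.976) and EDN1 (0.973), the endothelin precursor, whose R5020 differences were -1.01, -1.65 and -1.06 in KR cells and -1.17, -1.61 and -1.32 in WT cells. SOX9 was most like PDGFA (0.968), a platelet-derived growth factor chain, ASAP3 (0.952) and RGS19 (0.951). PDGFA, like SOX9, had a larger R5020 difference in KR cells (0.75) than in WT cells (0.36) and a lower vehicle level in KR than in WT cells (-0.48). SOX4 was most like TC2N (0.939), MAN2A1 (0.908) and the chemokine CXCL14 (0.906), which with vehicle differed between KR and PR-null cells by 0.61, 0.53 and 1.00. The CXCL14 mean in PR-null cells with vehicle (5.93) was under the background limit, so its difference is measured from background. SOX12 was most like ICA1 (0.886), TCEA3 (0.870) and SVEP1 (0.862), on a signal near background.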

How the data were processed

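RNA of T47D-Y lines was hybridised to Illumina HT-12v4 bead arrays. The authors deposited log2 intensities, obtained with lumi by log2 transformation and quantile normalization (its version is not given in the sources used here). The non-normalized table has 12 intensity columns whose codes match no label, and these were left out with their detection p-values. Line, treatment and replicate number are given per the labels.

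For each probe, limma 3.58.1 (R 4.3.3) estimated 1 mean per group with empirical Bayes moderation (37.1 prior and 6 residual degrees of freedom), and 12 contrasts were adjusted by Benjamini-Hochberg over 47231 probes. The thresholds follow the study's methods. The number of arrays limits the precision. Of the probes, 30113 had 1 gene symbol, 8 several and 17110 none, and the brightest probe stood for a gene. The fit was tested on simulated data.

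Named were all member probes, PGR, other SOX genes that were called or above background on all arrays, up to 4 called genes of each list per R5020 effect, and the most correlated genes (5 for SOX2, 3 for other members). Other names were chosen after their values were seen, as said there. The members, lists and background limit were chosen with earlier results of these data known. Alternatives were normexp correction, cyclic loess, trend and robust moderation, probes above background only, the groups of a comparison only, the replicate number as a block, a log2 threshold of 1, and leaving out each array. Promoters came from a RefSeq table (GRCh38.p14), in which 4 of the 5 genes matched by symbol.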

Additional observations from a re-analysis of the deposited data

Results flagged for a closer look

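The R5020 effects on several genes differed between lines by a test of the difference itself (limma, adjusted over all probes). Between KR and WT cells, SOX2 differed by 0.96 for ILMN_1770635 (adjusted p = 8.93e-05) and 0.84 for ILMN_2177156 (adjusted p = 0.00489), ELF5 by 0.90 (adjusted p = 0.000413) and KLF4 by -1.24 (adjusted p = 6.09e-06). For each of these genes the response was smaller in size in KR cells. KLF4 started from a higher vehicle level in KR than in WT cells (0.66, adjusted p = 0.000594). Between KR and PR-null cells, the SOX2 effects differed by -2.19 and -2.21 (adjusted p = 1.06e-14 and 5.51e-13), that of SOX9 by 1.05 (adjusted p = 2.43e-05) and that of SOX13 by -0.68 (adjusted p = 0.00436). Between WT and PR-null cells, the SOX2 effects differed by -3.14 and -3.05 (adjusted p = 4.61e-20 and 1.72e-17) and that of SOX13 by -0.62 (adjusted p = 0.00962). The last 2 comparisons share the PR-null arrays, and groups of 2 arrays were too small for a test of single outlying arrays.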

How the results depend on the processing

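Of 72 differences of SOX probes, 32 were called, and none of these changed sign under any alternative. Apart from the stricter fold threshold, 26 of the 32 kept their call under every alternative. The other 6 lost it under at least 1 alternative: those of SOX4 with R5020 between KR and PR-null cells (0.59 with normexp correction) and between KR and WT cells, SOX13 in WT cells, SOX13 in KR and in WT cells against PR-null cells, and ILMN_2177156 of SOX2 between the KR and WT effects. For SOX13, the WT and PR-null effects differed by -0.58 with cyclic loess and had an adjusted p of 0.0132 with only the groups of the comparison, and without single arrays the difference ranged over -0.69 to -0.55 (WT) and that for KR had an adjusted p of up to 0.0487. The cause was not tested. Of 37 differences never called, 17 changed sign under an alternative, none above 0.17 in size, and 3 were called only without 1 array: SOX4 with vehicle between KR and PR-null cells (0.68), SOX9 in WT cells (0.65) and SOX9 between the WT and PR-null effects (0.76, without WT vehicle replicate 1).

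At a log2 difference over 1, fewer calls are made by construction. All probes called were then 404 (KR) and 509 (WT) for the R5020 effects, 90 for KR minus WT, and 425 (KR) and 497 (WT) for the effects minus that in PR-null cells. Between lines they were 208 (KR minus PR-null), 249 (WT minus PR-null) and 36 (KR minus WT) with vehicle, and 652, 761 and 137 in the same order with R5020. SOX probes called were then 2 for the KR effect and 0 for KR minus WT of the effects (3 at an unadjusted p under 0.05) and of vehicle (2). With R5020, 1 each was called for KR minus PR-null and KR minus WT. In the other comparisons that had a SOX call, both SOX2 probes kept theirs, among them the WT effect (-3.16 and -3.06).

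Without single arrays, 0 to 2 probes were called for R5020 in PR-null cells, of which none was a SOX probe, and 174 to 214, against 272 with all arrays, for the KR effect minus the WT effect, with 1 to 2 SOX probes. Gene lists had 14 calls by brightest probe and 12 when a gene took its mean difference and its largest adjusted p over probes above background. Arrays of the same replicate number deviated little together: correlations of deviations were -0.0468 to 0.0814 in 15 pairs of groups. The highest was that of KR cells with R5020 and with vehicle. No pairing by number was assumed, but low correlations of normalized values cannot exclude it. With the replicate number as a block, 1 call of a SOX probe was lost (SOX13, WT minus PR-null effect, -0.62, adjusted p = 0.0107), 271 probes were called for the KR effect minus the WT effect, and none of 24 counts moved by over 1.5 times. The planned neqc normalization and bead chip block were not run, because the columns they need could not be assigned to samples. For probes near background, such as that of SOX12, folds measured against the limit are estimates and not minimum values.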

Other observations

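Genes of the mammary progenitor list also differed between the lines before ligand, and these were picked out after their values were seen. With vehicle, 1 of the 10 listed genes was called higher and 2 lower in each receptor line than in PR-null cells. In KR against WT cells, 1 was called lower. Of all 47231 probes, 0.635% (KR) and 0.913% (WT) were called higher than in PR-null cells, and 0.284% lower in KR than in WT cells. In either direction, 753 (KR against PR-null), 915 (WT against PR-null) and 237 (KR against WT) were called. The list was counted by gene and these shares by probe. Only the brightest probe of each gene was read, although CD44 and ALDH1A3 had others. PROCR, the protein C receptor that marks a mammary stem cell population in mice, gave 7.13 and 7.33 in KR cells and 6.99 and 7.32 in WT cells with vehicle, against 8.84 and 8.53 in PR-null cells, a difference of -1.46 for KR and -1.53 for WT cells. ALDH1A3, an aldehyde dehydrogenase of luminal progenitors, gave 8.33 and 8.34 in KR cells, 9.40 and 9.68 in WT cells and 7.76 and 7.76 in PR-null cells with vehicle. It was lower in KR than in WT cells by 1.20, the direction that SOX9 also had in that comparison. CD44, the hyaluronan receptor, was higher in KR than in PR-null cells with vehicle by 0.74, and WT cells differed from PR-null cells by 0.53. SLPI, a secreted protease inhibitor, was lower than in PR-null cells with vehicle by 0.98 in KR cells and 0.66 in WT cells. ALDH1A3 was called higher in WT than in PR-null cells with vehicle (1.78). Its difference between KR and PR-null cells (0.57) was under the fold threshold and was not called. All other differences in this paragraph but that of CD44 in WT cells were called by limma. The comparisons with PR-null cells share the PR-null arrays.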
